A study of Mus musculus with 6 samples.

Results

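A set of 106 genes was lower in primary mouse astrocytes at the end of a 48 h treatment with the GSK-3 inhibitor Ro3303544 and still lower 48 h after the drug had been removed. They were chosen by their own array values. A probe entered when it was well above background on all 6 arrays, when its mean in treated cultures was at least 1 log2 unit below control, when its mean after washout was at least 0.8 log2 units below control, and when both washout arrays lay below both control arrays. Each gene was then represented by its brightest qualifying probe. The 106 genes were 0.882% of the 12018 named genes measured above background on every array, and 12.4% of the 852 named genes that the inhibitor had lowered at least to the same threshold on any probe. The other 746 of those genes did not meet the conditions.

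Astrocytes came from the cortex and striatum of 1-day-old wild-type C57BL/6J pups and grew in medium with 10% serum. All cultures, controls included, had received 5 µM cytosine arabinoside (AraC, which kills dividing cells) for 2 days at about day 7. Treatment began after 13 days in vitro. Control cultures received vehicle (DMSO per the protocol), Ro cultures received 1 µM Ro3303544 for 48 h, and washout cultures received the same treatment followed by 48 h in drug-free medium. Control and Ro cells were therefore 15 days in vitro at harvest and washout cells 17, and no control of the later age was measured. Each group had 2 one-colour arrays. Whether both came from separate preparations of cells is not given, so any p-value measures the spread between these samples only, which may be technical. One slide held the control and Ro arrays and another held those of washout. Slide, age in culture and washout cannot be told apart.

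GSK-3 is a serine/threonine kinase that is active in resting cells. It marks beta-catenin for destruction, so its inhibition mimics canonical Wnt signalling, and it also phosphorylates glycogen synthase and many transcription factors. Astrocytes carry the receptors and kinases of innate immunity and express interferon-stimulated genes, many of which carry an interferon-stimulated response element in the promoter. Astrocytes in serum also secrete extracellular matrix, and cultures of newborn brain can carry fibroblasts, pericytes and microglia.

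All 10 astrocyte markers examined (Gfap, Slc1a3, Slc1a2, Aqp4, Aldh1l1, Gja1, S100b, Sox9, Glul and Atp1b2) were well above background on every array. Probes well above background made up 60.4% to 65.2% of those used, no spot was saturated, and the 75th percentile of processed intensity ran from 631 to 807. A level below is the log2 processed intensity minus the log2 of that percentile on the same array, so a level of 0 is the brightness of the 75th percentile. Levels are compared only within a probe. Over all 12018 genes the median difference from control was -0.01 log2 units in both Ro and washout.

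Among the 106 genes the difference of Ro from control ran from -4.29 to -1.02 log2 units with a median of -1.57, or 2.97-fold lower. The difference of washout from control ran from -2.35 to -0.80 with a median of -1.06, or 2.09-fold lower. By construction every one of the 106 met the Ro threshold, which 6.68% of the 12018 genes did on their brightest probe. In all 106 both Ro arrays also lay below both control arrays, as they did in 42.2% of all genes. These differences chose the genes, so they carry no test and nothing is read from the counts. Expressed per gene, the share of the Ro difference that was still present after washout ran from 26.2% to 157% with a median of 69.7%. It was at least 75% in 41 genes, between 50% and 75% in 44, and below 50% in 21. In bulk RNA, fewer cells of a type and less RNA per cell cannot be told apart.

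**Figure D1:**
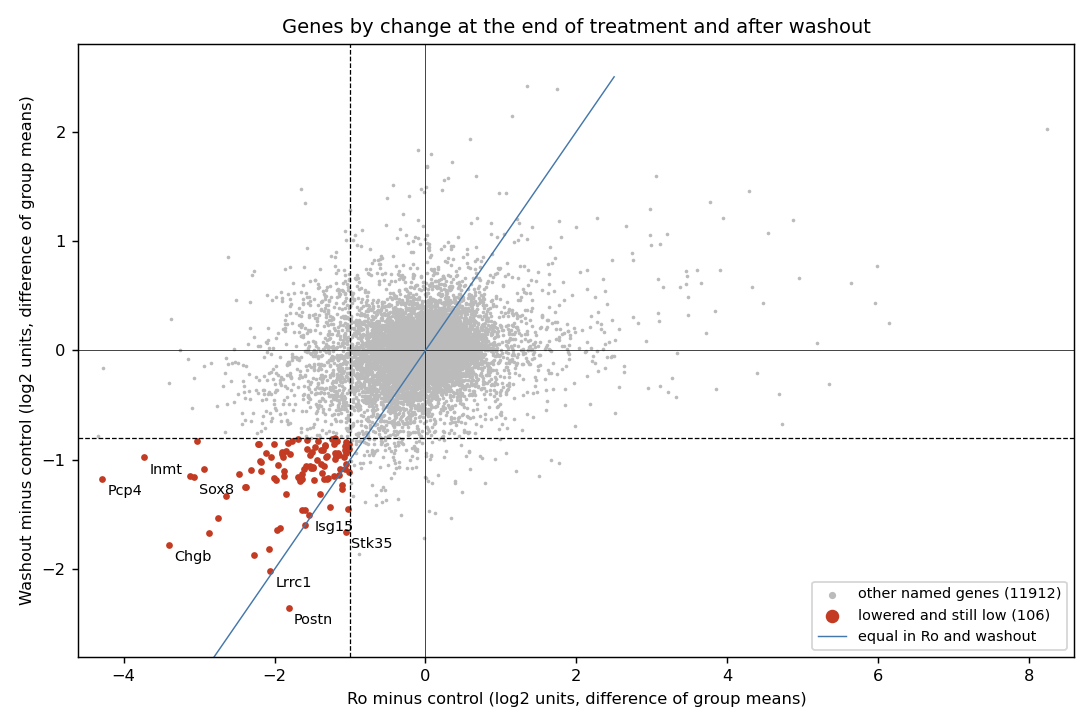
Difference of group means for 12018 named genes, Ro minus control on the x axis and washout minus control on the y axis, both in log2 units; each point is a gene, red marks the 106 selected genes at the probe that met the selection, grey the other genes at their brightest probe, dashed lines the thresholds at -1 and -0.8, and the blue line equality of the differences. Most red points lie above the blue line, with Pcp4 and Inmt farthest left and Postn lowest at -2.35.

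Interferon-induced genes made up 15 of the 106. The list of interferon response genes used here had 33 genes above background on all arrays, and 9 of them, 27.3%, were among the 106: Isg15, Irf7, Ifit1, Ifit3, Dhx58, Oasl2, Usp18, Ddx58 and Rtp4. The share over all genes was 0.882%, and since the values chose the genes nothing further is read from it. Another 6 (Irf5, Phf11a, Phf11d, Tgtp1, Apol9b and Trim6) were assigned to the class after their values were seen. Phf11a with Phf11d, Tgtp1 with Tgtp2, and Apol9b with Apol9a are related genes whose probes may pick up both transcripts. Their sequences were not compared.

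The promoters of these genes are shown because several carry the letters of the interferon-stimulated response element, which the selection did not use. The RefSeq table (GRCm38.p6) held a promoter window of 300 bases, 250 before the gene start and 50 after it, for 85 of the 106 genes. The core searched was the letters GAAA, any 2 bases, and GAAA again, on either strand, with overlapping matches counted. It occurred in 3.49% of all 27025 windows, in 4 of the 6 windows of interferon-list genes (Isg15, Ifit1, Ifit3 and Ddx58) and in 6 of the other 79 windows, 7.59%. The 120-base stretches below are written 5′ to 3′ on the strand of the gene, with every match that lies in the stretch in capitals.
Isg15, chr4:156200819-156200938 (- strand): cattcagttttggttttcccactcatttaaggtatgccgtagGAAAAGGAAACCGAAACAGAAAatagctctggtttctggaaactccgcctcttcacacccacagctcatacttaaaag
Ifit1, chr19:34640755-34640874 (+ strand): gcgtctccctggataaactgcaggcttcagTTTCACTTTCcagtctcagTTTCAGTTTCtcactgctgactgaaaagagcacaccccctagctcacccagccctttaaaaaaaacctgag
Ifit3, chr19:34583343-34583462 (+ strand): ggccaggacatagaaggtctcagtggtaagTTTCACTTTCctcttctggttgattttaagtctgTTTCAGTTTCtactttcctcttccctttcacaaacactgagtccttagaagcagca
Tgtp1, chr11:48992247-48992366 (- strand): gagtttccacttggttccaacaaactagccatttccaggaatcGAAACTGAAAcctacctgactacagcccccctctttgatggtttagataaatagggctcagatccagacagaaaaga
Phf11a, chr14:59297523-59297642 (- strand): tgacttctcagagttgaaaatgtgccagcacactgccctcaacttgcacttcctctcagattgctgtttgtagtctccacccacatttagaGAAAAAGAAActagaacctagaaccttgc
Apol9b, chr15:77728952-77729071 (+ strand): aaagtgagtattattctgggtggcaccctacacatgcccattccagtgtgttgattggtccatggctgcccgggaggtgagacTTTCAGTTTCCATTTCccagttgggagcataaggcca

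Positions of matches are counted from the gene start, with negative numbers before it. Isg15 had 3 overlapping matches, starting at -78, -72 and -66. Ifit1 had a pair at -104 and -85, and Ifit3 another pair at -156 and -122. Tgtp1 had 1 match at -77, Phf11a 1 at -29, and Apol9b an overlapping pair at -37 and -31. The match of Ddx58 began 2 bases after the start. Outside the interferon class the core was found in Tgfbi, at -194, and at the first base of Gstm6 and Clec4d. A match of letters is a description and does not show binding. Other short elements were searched the same way. The TCF/LEF core (ATCAAAG or TTCAAAG) was in 4 of the 85 windows, 4.71%, against 8.77% of all windows. The TEAD core GGAATG was in 14.1% against 14.6%, the AP-1 core TGANTCA in 3.53% against 7.93%, and the TATA box letters TATAAA in 12.9% against 14.2%.

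Isg15, a ubiquitin-like protein attached to other proteins during antiviral responses, read 1.36 and 0.91 in the control arrays, -0.50 and -0.30 in Ro and -0.23 and -0.50 in washout. Ro and washout overlapped, and 97.6% of the Ro difference was present after washout. Irf7, the transcription factor that amplifies type I interferon production, behaved alike, at -2.38 and -2.72 in control, -4.13 and -3.78 in Ro and -3.84 and -3.88 in washout. Dhx58, which encodes the cytosolic RNA sensor LGP2, kept 99.1% of its difference. Its levels were -1.42 and -1.52 in control, -2.70 and -2.54 in Ro, and -2.52 and -2.71 in washout. Irf5, another interferon regulatory factor, stood at -2.38 and -3.34 in control, -4.17 and -4.17 in Ro, and -4.17 and -3.92 in washout. Its control arrays lay almost 1 unit apart.

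The Ifit genes, whose products bind foreign RNA, lay between control and Ro after washout. Ifit1 read -0.10 and -0.95 in control, -2.51 and -2.22 in Ro, and -1.87 and -1.79 in washout. Ifit3 read 4.43 and 3.94, then 2.31 and 2.54, then 3.38 and 3.34 in the same order, and kept 47.0% of its difference, the smallest share of the class. Replicates were closer in washout than in control for both. Usp18, the protease that removes Isg15 from proteins and dampens the interferon receptor, read 0.96 and 0.14 in control, -1.06 and -0.83 in Ro and -0.50 and -0.53 in washout. Oasl2, of the oligoadenylate synthetase family, read 1.21 and 0.85 in control, -0.63 and -0.34 in Ro and -0.05 and -0.03 in washout. Their washout arrays also lay between the other groups. Rtp4, an interferon-induced chaperone of receptors, read 3.60 and 3.11 in control, 1.91 and 2.14 in Ro, and 2.54 and 2.45 in washout. Ddx58, the RNA sensor RIG-I, read -2.97 and -2.88, then -3.87 and -4.29, then -3.73 and -4.00.

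Of the class members outside the list, Trim6, a ubiquitin ligase, had the largest Ro difference at -2.18 and a washout difference of -1.10. Tgtp1, an interferon-inducible GTPase, read -2.50 and -3.81 in the control arrays, -4.87 and -4.66 in Ro, and -4.12 and -4.37 in washout. Its controls differed by 1.31 units, the widest control pair of the 106 genes. Phf11a, Phf11d and Apol9b had washout differences of -1.19, -1.18 and -0.91. Over the class, 47.0% to 99.1% of the Ro difference was present after washout, with a median of 71.2%.

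Control replicate 1 was the higher control in 14 of the 15 genes, all but Ddx58 on its chosen probe, against 57 of all 106. On the brightest probe of Ddx58 it was also the higher, at 0.36 and 0.30, as on another probe, at -2.15 and -2.95. The brightest probe differed from control by -0.68 in Ro and -0.77 in washout, the other by -0.35 and -0.40. When control replicate 1 was left out, 9 of the 15 still met the selection, and all 15 did so without control replicate 2. The level of the control group for this class therefore leaned on 1 array. Among the 27 other tested genes of the interferon list, limma called 18 lower and 1 higher in Ro than in control. It called 7 lower in washout than in control (adjusted p under 0.05). Of 13053 named genes, 24.8% were called lower and 18.6% higher in Ro, and 6.06% lower in washout. The fit held 36 genes of the list, against 33 above background on all arrays. Those beyond the 33 can enter through a group where they are high. With Ro replicate 1 or Ro replicate 2 left out, the count lower in Ro was 7 or 9, and with control replicate 1 left out 12. The count lower in washout was 0 to 4 when any 1 of the arrays was left out. With the 9 selected genes left out, the mean level of the other 24 measured list genes was 0.80 and 0.67 in the control arrays, 0.13 and 0.19 in Ro, and 0.27 and 0.28 in washout.

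**Figure D2:**
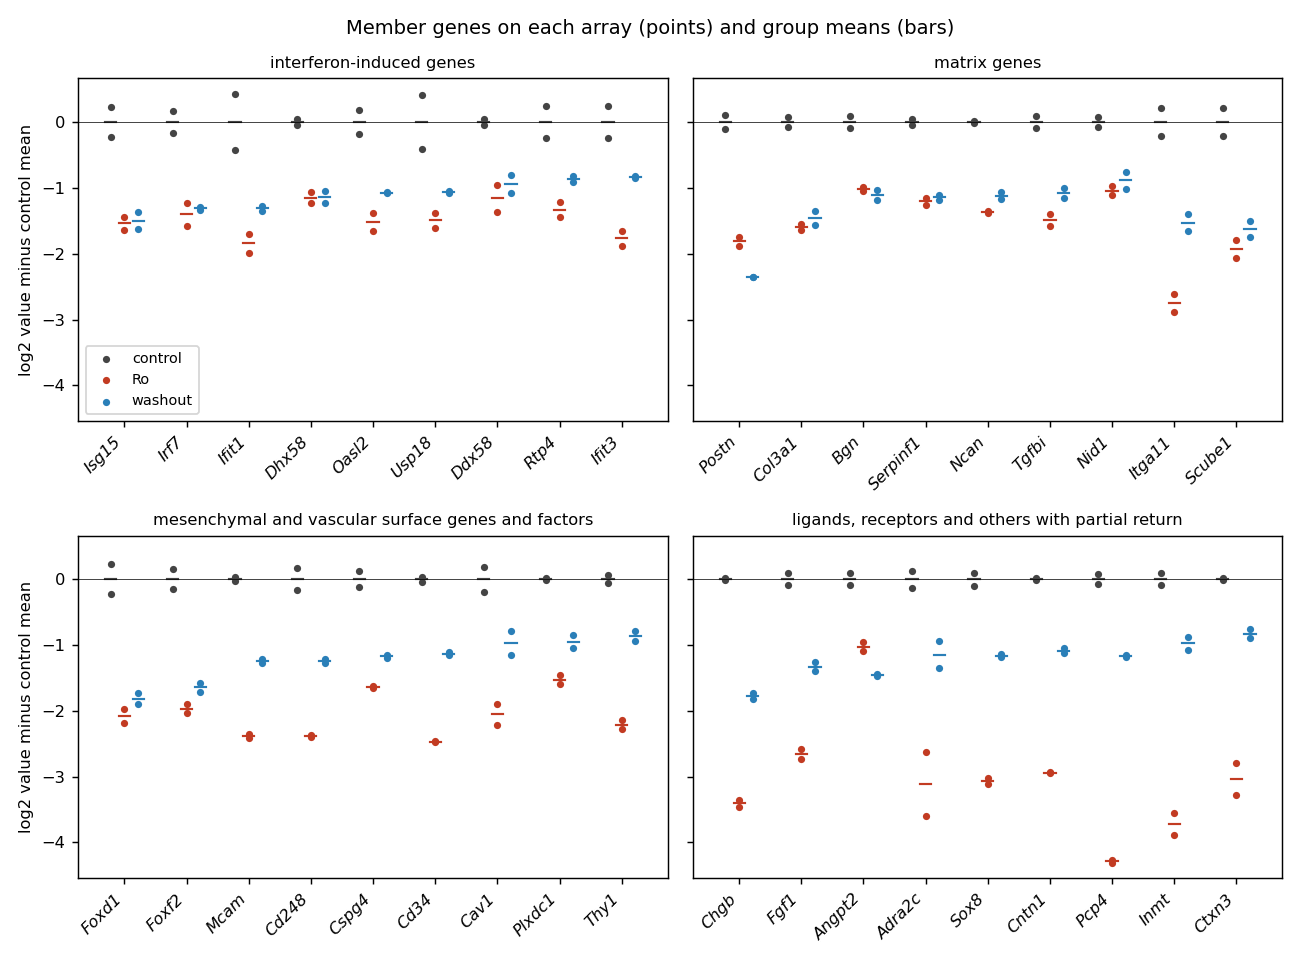
Level of 36 of the genes on each array minus the gene's control mean (log2 units, y axis), in 4 panels. All but the last panel show genes of a class. The last mixes genes of several classes, most of them picked for a partial return after washout. Points are the 2 arrays of a group (grey control, red Ro, blue washout) and bars the group means. Control points of Ifit1 and Usp18 lie wide apart, and Postn lies lower in washout (-2.35) than in Ro (-1.81). In the last panel most washout points lie far above the Ro points, the trait that its genes were picked for.

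Extracellular matrix genes numbered 15, and a median of 83.0% of their Ro difference was present after washout, the highest median among the classes. Postn, which encodes periostin, a matrix protein of fibroblasts, read -0.56 and -0.36 in control, -2.34 and -2.21 in Ro, and -2.81 and -2.81 in washout. It lay lower after washout than at the end of treatment, and its washout difference of -2.35, a 5.10-fold decrease, was the largest of all 12018 genes in that direction. Col3a1, a fibrillar collagen chain, read 1.00 and 1.15 in control, -0.48 and -0.56 in Ro, and -0.49 and -0.27 in washout. Its Ro and washout arrays overlapped.

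Neurocan (Ncan), the chondroitin sulfate proteoglycan of astrocytes, was bright on every array, at 7.78 and 7.75 in control, 6.42 and 6.38 in Ro and 6.70 and 6.60 in washout. Chst3, the sulfotransferase that sulfates chondroitin chains, read 0.31 and 0.29 in control, -1.39 and -1.35 in Ro and -0.87 and -0.85 in washout. Replicates of both genes lay close together, and both washout arrays lay above both Ro arrays. Serpinf1, which encodes the secreted factor PEDF, read 5.19 and 5.29, then 3.98 and 4.09, then 4.14 and 4.06, with 94.9% of the difference present. The type II collagen gene Col2a1 read -1.53 and -1.26 in control, -2.73 and -2.45 in Ro and -2.46 and -2.32 in washout.

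Itga11, the collagen-binding integrin chain, had the largest Ro difference of the class and the largest return. It read -1.12 and -0.68 in control, -3.78 and -3.51 in Ro, and -2.56 and -2.30 in washout. Scube1, a secreted and surface protein, read -2.36 and -1.94, then -4.22 and -3.95, then -3.90 and -3.65. Tgfbi, Spon2, Itgbl1 and the membrane-type protease gene Mmp17 had washout differences of -1.08, -0.82, -0.98 and -0.81. Nid1, a basement membrane protein, had a washout difference of -0.89, and its Ro arrays (-0.32 and -0.47) overlapped its washout arrays (-0.37 and -0.11). Bgn, the small proteoglycan biglycan, and Cst6, a protease inhibitor, had washout means below their Ro means, with washout differences of -1.11 and -1.23.

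Of the collagen list, 2 of 28 measured genes were among the 106 (7.14%), where 6 met the Ro threshold on their brightest probe. Of matrix glycoproteins and proteoglycans it was 4 of 64 (6.25%), where 19 met the Ro threshold. Over all genes 0.882% met the selection and 6.68% the Ro threshold. Since the values chose the genes, nothing further is read from these counts.

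The class of mesenchymal and vascular surface genes and factors held 9 genes, with a median of 52.6% of the Ro difference present. Cd248 (endosialin, a surface protein of fibroblasts and pericytes) read 1.53 and 1.86 in control, -0.67 and -0.71 in Ro and 0.42 and 0.48 in washout. Mcam, an adhesion molecule of the vessel wall, read 2.57 and 2.64 in control, 0.26 and 0.20 in Ro and 1.39 and 1.33 in washout. Cd34, a sialomucin of vascular and progenitor cells, read 1.33 and 1.26, then -1.18 and -1.17, then 0.18 and 0.14. In these 3 genes the washout arrays lay about midway between the other groups, with replicates that barely differed. Thy1, a surface glycoprotein of fibroblasts and neurons, read 6.52 and 6.64 in control, 4.30 and 4.44 in Ro and 5.80 and 5.64 in washout. It had the smallest remaining share of the class, 38.9%.

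The class also held a pair of forkhead factor genes. Foxd1, a marker of meningeal and pericyte-lineage cells, read -2.04 and -1.58 in control, -3.78 and -3.99 in Ro, and -3.71 and -3.54 in washout, with 87.4% of the difference present. Foxf2, a factor of brain pericytes, read -1.36 and -1.05, then -3.11 and -3.23, then -2.91 and -2.78, with 83.6% present. Cspg4, the NG2 proteoglycan of pericytes and oligodendrocyte precursors, read 0.46 and 0.71 in control, -1.03 and -1.07 in Ro and -0.57 and -0.61 in washout. Cav1, the coat protein of caveolae, and Plxdc1, a receptor of vascular cells, had washout differences of -0.97 and -0.95.

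Markers of other cells were examined beside these genes. Of 15 meningeal fibroblast markers, 12 were above background on all arrays, and Postn, Foxd1 and Col3a1 were among the 106, while Slc6a13 and Crabp2 were above background on no array. With those 3 left out, the mean level of the other 9 was 0.07 and 0.24 in control, -0.07 and -0.08 in Ro, and -0.56 and -0.60 in washout. By limma, 5 of the other 10 tested markers were lower in Ro and 7 lower in washout than in control, and 1 was higher in each. The 10 include Foxc2, above background on 4 arrays, because the fit took probes above background throughout 1 group or more. Such a gene can enter through a group where it is high. Over all named genes 24.8% were called lower and 18.6% higher in Ro, and 6.06% lower and 3.47% higher in washout. Among these markers Lum and Aldh1a2, chosen after their values were seen, differed from control by 0.34 and 0.13 in Ro, neither past the threshold, and by -1.53 and -1.48 in washout. The higher ones were Foxc1 in Ro, by 0.52, and Ogn in washout, by 0.61, where Ogn had been lower in Ro, at -1.18. With any 1 array left out, the counts of 5 and 7 became 1 to 3 and 2 to 6. The part of meningeal cells in the results for matrix genes was not tested.

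Cspg4 is in both the pericyte list and the oligodendrocyte precursor list and is left out of the means that follow. The other 7 measured pericyte and smooth muscle markers averaged, relative to the mean of the control arrays, -0.02 and 0.02 in control, -0.63 and -0.81 in Ro, and -0.42 and -0.30 in washout, and Abcc9 and Des were above background on no array. The other 4 oligodendrocyte precursor markers (Gpr17 on no array) had mean levels of 0.43 and 0.43 in control, then -1.10 and -1.08, then 0.06 and -0.02. None of 12 measured microglia markers was among the 106, and their mean was 0.48 and 0.44 in control, -0.12 and 0.18 in Ro and 0.53 and 0.44 in washout. Unlike the meningeal list, these lists stood higher in both washout arrays than in both Ro arrays.

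None of the 8 measured ependymal markers was among the 106 either. Of all genes 0.882% were, so nothing is read from the absence of markers of either list. Their mean was 0.99 and 0.88 in control, -0.67 and -0.42 in Ro, and 1.32 and 1.26 in washout, and limma called all 8 lower in Ro than in control. The 10 astrocyte markers averaged 3.82 and 3.77, then 3.26 and 3.37, then 3.71 and 3.65, and 6 of them were called lower and 2 higher in Ro. Of 8 endothelial markers, Kdr and Flt1 were above background on all arrays, and Pecam1 and Tie1 on none. The mean of the 2 was -1.18 and -1.10 in control, 0.23 and 0.23 in Ro, and -0.99 and -0.85 in washout. By limma, 1 of the 3 tested endothelial markers was called higher and 2 lower in Ro than in control. The shares over all named genes were 24.8% lower and 18.6% higher in Ro. Counts with an array left out are not given for these lists. The part of these cell types in the results for the 106 genes was not tested.

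**Figure D3:**
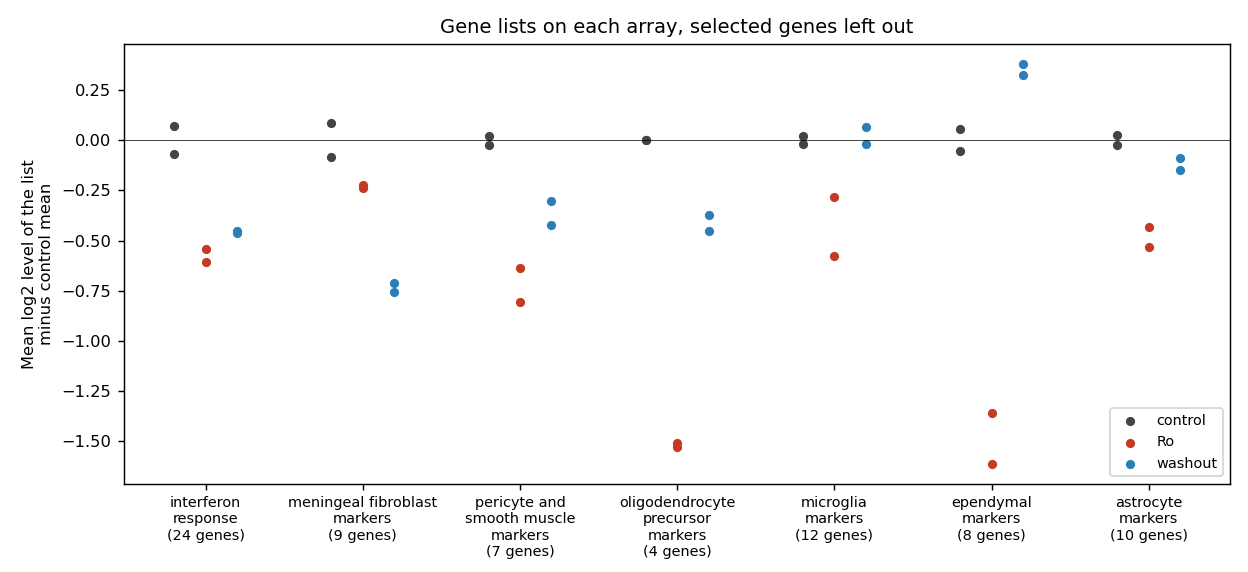
Mean level of the measured genes of the interferon list and of 6 cell type marker lists on each array, minus the mean of the control arrays (log2 units, y axis), with the 106 selected genes left out; points are single arrays. The meningeal markers lie at -0.22 and -0.24 in Ro and at -0.71 and -0.76 in washout, while each of the other lists lies higher in washout than in Ro.

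Among ligands, receptors and peptide enzymes, 10 genes in all, the granule protein chromogranin B showed the largest change. Chgb read 3.50 and 3.47 in control, 0.03 and 0.14 in Ro, and 1.76 and 1.66 in washout, so 52.2% of the Ro difference of -3.40 was present after washout. Adra2c, the alpha-2C adrenergic receptor, read -1.14 and -1.40 in control, -4.87 and -3.89 in Ro, and -2.63 and -2.21 in washout. Fgf1, a growth factor that astrocytes release, read -1.10 and -1.29 in control, -3.77 and -3.92 in Ro and -2.59 and -2.46 in washout. All 3 lay between control and Ro after washout.

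Both Wnt ligands of the set also lay between control and Ro after washout. Wnt7b read -1.55 and -1.54 in control, -3.28 and -3.18 in Ro and -2.39 and -2.33 in washout. Wnt4 read -2.60 and -2.06, then -4.13 and -4.31, then -3.35 and -3.26. They were the only genes among the 57 measured in the list of Wnt pathway genes and targets to meet the selection. That was 3.51%, where the share over all genes was 0.882%. Of the other 62 tested genes of that list, limma called 28 higher and 17 lower in Ro than in control, and 7 higher and 7 lower in washout. The fit held 64 genes of the list, and those beyond the 57 measured can enter through a group where they are high. The shares over all named genes were 18.6% higher and 24.8% lower in Ro, and 3.47% and 6.06% in washout. The counts in Ro were 23 to 32 higher and 10 to 19 lower with any 1 array left out, and those in washout were 1 to 9 and 1 to 8.

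Angpt2, the angiopoietin that loosens vessel walls, departed from the rest of its class. It read 0.75 and 0.94 in control, -0.12 and -0.24 in Ro, and -0.59 and -0.62 in washout, lower after washout than at the end of treatment. Ramp1, a subunit of the receptor for the peptide CGRP, read -0.19 and -0.07, then -1.79 and -1.74, then -1.39 and -1.13. Ace (angiotensin-converting enzyme), Efna1 (an ephrin ligand) and Fgl2 (a fibrinogen-like protein) had washout differences of -0.94, -0.96 and -0.96, and kept 77.6%, 83.3% and 81.6% of their Ro differences.

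Proteins that signal inside the cell formed the class with the most genes, 16. Pcp4, a small calmodulin-binding protein, had the largest Ro difference of the 106 genes. It read 1.67 and 1.52 in control, -2.72 and -2.67 in Ro and 0.44 and 0.40 in washout. This was 19.5-fold lower at the end of treatment, and 27.4% of the log2 difference remained. The 3 G protein gamma subunit genes in the set were Gng13, Gng8 and Gng3. Gng13 read -2.35 and -2.16 in control, -4.80 and -4.26 in Ro, and -3.96 and -4.30 in washout, with 82.3% of its difference present. Gng8 and Gng3 had washout differences of -1.15 and -0.91.

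Other members of this class regulate small G proteins, calcium signalling and cyclic nucleotides. Dok7, an adaptor of the muscle-specific kinase MuSK, read -0.04 and -0.09, then -1.91 and -1.95, then -1.16 and -1.18. Pde1b, a calmodulin-dependent phosphodiesterase, read 1.70 and 1.73 in control, 0.57 and 0.59 in Ro and 0.64 and 0.62 in washout. Its replicates lay close together, and 95.4% of its difference was present. Rgs4, which shortens G protein signals, was less even, at -1.54 and -1.65 in control, -4.16 and -2.98 in Ro and -2.99 and -2.56 in washout. Its washout replicates lay on either side of a Ro replicate. Rab42, Rap1gap2, Ppp4r4, Pnck, Rasl10a, Aatk, Mapk13 and Camk1d had washout differences between -1.17 and -0.80.

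Channels and transporters numbered 8. Slc6a9, the glycine transporter GlyT1 of astrocytes, read 2.52 and 2.60 in control, 0.67 and 0.64 in Ro and 1.63 and 1.62 in washout, so 49.1% of its difference remained. Kcne1l, an accessory potassium channel subunit, read 3.22 and 3.07, then 0.89 and 1.03, then 2.23 and 2.02. Kcnip1, a calcium-binding partner of A-type potassium channels, read -1.17 and -1.04 in control, -3.44 and -3.40 in Ro, and -2.61 and -1.79 in washout, with its washout replicates 0.82 units apart. These 3 and Kcnf1 lay midway between control and Ro after washout. Kcnk13, a two-pore potassium channel of glia, lay closer to its Ro level, at 0.43 and 0.58, then -0.58 and -0.50, then -0.41 and -0.46. Trpv2, Slc29a1 (an adenosine transporter) and Catsperz had washout differences of -0.85, -0.86 and -1.26. The families of solute carriers and of channel subunits had 2 of 224 (0.893%) and 5 of 86 (5.81%) measured genes among the 106. The share over all genes was 0.882%, close to that of solute carriers, and nothing further is read from these counts.

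Transcription and chromatin genes numbered 10. Sox8, a SOX factor of glia, read 0.19 and 0.38 in control, -2.73 and -2.84 in Ro and -0.85 and -0.90 in washout. Dbx2, a homeobox gene, read 1.58 and 1.47, then -0.28 and -0.25, then 0.64 and 0.52. Myb, a factor of progenitor cells, read -1.59 and -1.66 in control, -3.87 and -3.78 in Ro and -2.54 and -2.72 in washout. In all 3 the groups were separate, with washout in the middle, and 37.9%, 52.7% and 45.8% of the differences remained. The related gene Mybl1 kept 49.7%.

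The clock gene Arntl (Bmal1) read 1.06 and 0.93 in control, -0.11 and -0.01 in Ro, and 0.10 and 0.20 in washout. Npas1, a repressor of the same protein family, read 0.42 and 0.70, then -0.56 and -0.49, then -0.33 and -0.50. Cited4, a coactivator, Chd5, a chromatin remodeller, and Utf1 had washout differences of -1.06, -1.03 and -1.43. Utf1 rests on unequal controls, at -2.55 and -1.51.

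Enzymes of metabolism numbered 9. Inmt, the indolethylamine N-methyltransferase, read 1.09 and 1.27 in control, -2.71 and -2.38 in Ro and 0.30 and 0.10 in washout. It had the smallest remaining share of all 106 genes, 26.2%. Cygb, the haem protein cytoglobin, read -2.07 and -1.98, then -4.99 and -4.79, then -3.59 and -3.80. G0s2, an inhibitor of the lipase ATGL, read -1.74 and -1.79 in control, -3.39 and -3.33 in Ro, and -3.09 and -3.63 in washout, so the washout arrays lay on either side of the Ro arrays. Aldh1a3, a retinoic acid-forming enzyme, kept 89.3% of its difference. Lpl (lipoprotein lipase), Alox5ap (the 5-lipoxygenase partner FLAP), Cbr2, Gstm6 and Mgat5 (an N-glycan transferase) had washout differences of -1.06, -0.82, -0.84, -1.17 and -0.97.

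The remaining 14 genes fell in no class. Cntn1, the adhesion protein contactin 1, read -0.65 and -0.63 in control, -3.59 and -3.57 in Ro and -1.69 and -1.77 in washout. Ctxn3 read -1.74 and -1.78, then -4.55 and -5.04, then -2.53 and -2.66, and kept 27.4% of its difference. Bbc3, the pro-apoptotic gene PUMA, read 3.98 and 4.11 in control, 2.68 and 2.75 in Ro and 3.10 and 3.23 in washout. Sgca, Tspan2 and Lrrc1 kept 102%, 97.8% and 97.6%, while Pdzd3 and Cys1 kept 38.7% and 44.5%. For Tspan2 and Lrrc1 this holds on the chosen probe only, since brighter probes of both did not meet the selection. The others (Clec4d, Myom1, Lman1l, Crip1, Adam23 and Pdlim3) kept between 57.6% and 78.8%.

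Washout and Ro were then compared directly. Both washout arrays lay above both Ro arrays in 79 of the 106 genes (39.4% of all genes did so), both lay below in 5 (38.8% of all genes), and in 22 the groups overlapped. The washout mean was above the Ro mean in 97. By limma with Benjamini-Hochberg adjustment over all tested probes, washout exceeded Ro in 51 genes and fell short of it in 2, Postn and Angpt2, where 22.6% and 20.4% of 13053 named genes were called. The Ro and washout values had both entered the selection, so these counts describe the genes and support nothing further. The difference of washout from Ro ran from -0.61 to 3.11 log2 units with a median of 0.45, and 22 genes were at least 1 unit higher.

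Pcp4 stood 3.11 units above Ro (standard error 0.08), Inmt 2.75 (0.15), Ctxn3 2.20 (0.17), Adra2c 1.96 (0.35), Sox8 1.91 (0.10) and Cntn1 1.85 (0.07). At the other end Postn stood at -0.54 (0.10) and Angpt2 at -0.43 (0.10). Stk35, a nuclear kinase gene, had the lowest estimate at -0.61, but its standard error was 0.42 and it did not pass the threshold. By class, 7 of 9 mesenchymal and vascular genes, 7 of 10 ligand and receptor genes and 6 of 9 enzyme genes were called higher. So were 6 of 15 matrix genes and 3 of 15 interferon-induced genes (Ifit3, Trim6 and Apol9b). In signalling, transcription, channel and unclassed genes the counts were 6 of 16, 5 of 10, 4 of 8 and 7 of 14. The standard error pools the spread within all groups, so wide control pairs, as in Usp18 and Ifit1, enlarge it. Both washout arrays lay above both Ro arrays in 11 of the 15 interferon-induced genes and 8 of the 15 matrix genes (39.4% of all genes). No test compared the classes. Leaving out Ro replicate 1 or Ro replicate 2 brought the genes that met the selection and were called higher to 32 or 34, and those over all genes to 1645 or 1764, and the 2 lower genes became 1 or 0.

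**Figure D4:**
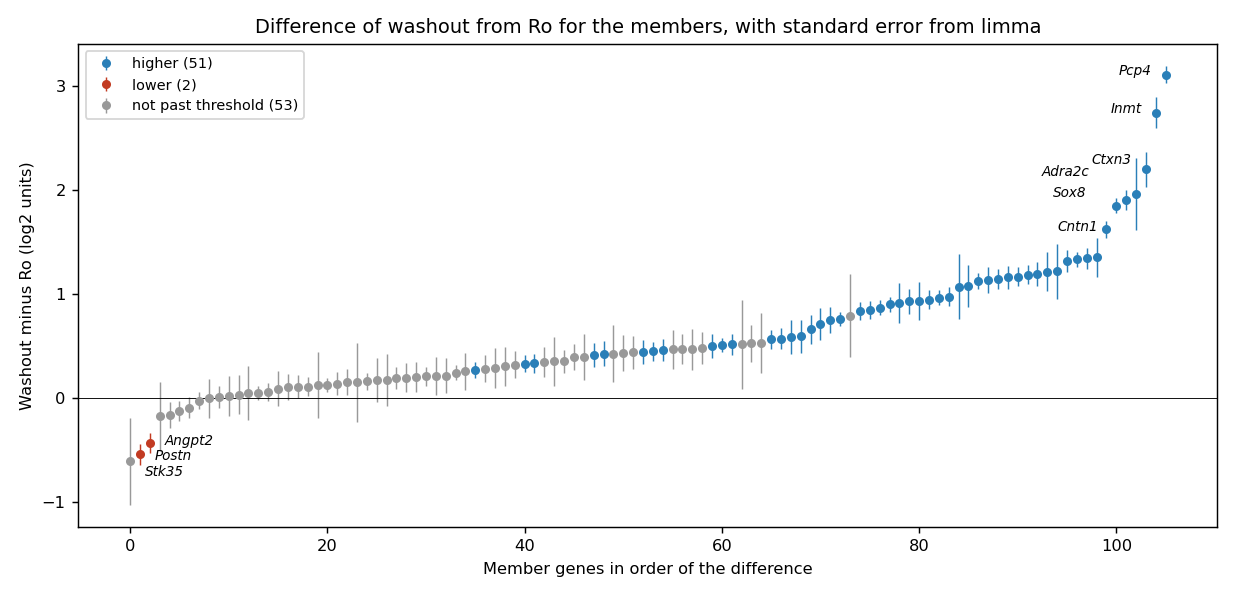
Difference of washout from Ro for each of the 106 genes (log2 units, y axis), ordered from lowest to highest on the x axis; bars are standard errors from limma, blue marks the 51 genes called higher in washout, red the 2 called lower and grey the 53 not past the threshold. Pcp4 lies highest at 3.11, and Postn and Angpt2 are the red points below 0.

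Further probes on the arrays gave a second reading of the same RNA for some genes. There were 48 further probes for 39 of the genes, of which 28 in 26 genes were above background on all arrays. All 28 were lower in Ro than in control, with a median of -1.16, and 26 were lower in washout, with a median of -0.69. The selection itself was met by 6 of the 28, in Cd248, Cited4, Col2a1, Cspg4, Mcam and Serpinf1, and not by 22. The further probe of Col2a1 read -1.73 and -1.46 in control, -3.77 and -3.88 in Ro and -3.13 and -3.02 in washout.

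In the washout difference, the further probes that departed most from the chosen probe were those of Lrrc1, Stk35, Scube1 and Sox8. Lrrc1 had 2 further probes, with Ro differences of -0.10 and -0.24 and washout differences of 0.35 and 0.01, against -2.06 and -2.01 on the chosen probe. For Stk35 the further probe was -0.24 in Ro and -0.19 in washout, against -1.06 and -1.66. The second Sox8 probe shared the Ro decrease, at -2.94, but had a washout difference of -0.38. Scube1's further probe was -0.33 and -0.62, and that of Thy1 -2.23 and -0.54. In 15 of the 106 genes the probe that met the selection was not the gene's brightest, so the gene entered through a dimmer probe. Among them were Lrrc1, Stk35, Cav1, Chd5, Ddx58, Gng3, Lpl, Ramp1 and Tspan2. On its brightest probe Tspan2 differed from control by -0.89 in Ro and -0.42 in washout, and Ramp1 by -1.13 and -0.42.

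**Figure D5:**
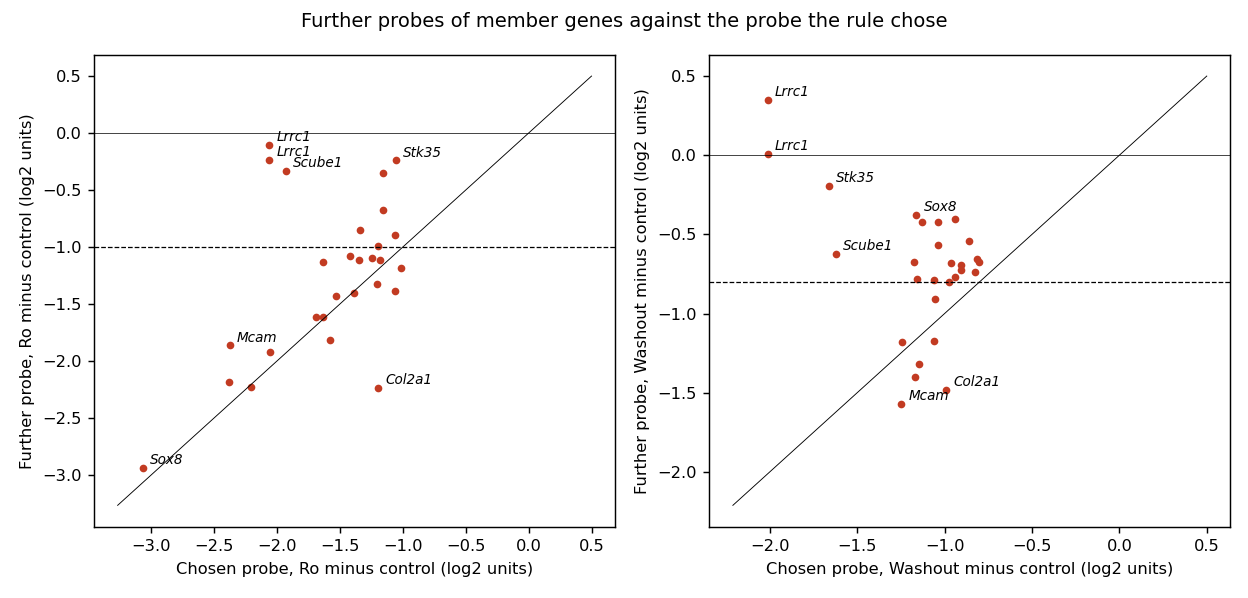
Differences from control (log2 units) of the chosen probe on the x axis and of a further probe of the same gene on the y axis, for the 28 further probes above background on all arrays, separately for Ro and for washout, with the line of equality. All 28 lie below 0 in Ro and 26 in washout; the Lrrc1 and Stk35 probes lie near 0 on the y axis.

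The thresholds cut through a continuous range. Bgn and Slc29a1 entered with Ro differences of -1.02, while Ckmt1, Pirb and Gpr162 stayed out at -0.99, -0.99 and -0.97 with washout differences of -1.01, -1.21 and -0.82. On the washout side Camk1d, Mmp17 and Wnt7b entered at -0.80, -0.81 and -0.81. Cyb561, Iqgap2 and Tspyl3 stayed out at -0.80, -0.79 and -0.79, the first by a difference that rounding hides. The median gap between replicates was 0.15 units in control, 0.13 in Ro and 0.15 in washout for the 106 genes, which is wider than these steps.

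Some of the genes are neighbours in the genome, taken as pairs with at most 4 protein-coding genes between them. How often such pairs arise in other sets of genes was not counted, so nothing is read from them. By the RefSeq gene order, 1 protein-coding gene lies between Adra2c and Dok7 on chromosome 5, between Gng13 and Sox8 on chromosome 17, and between Phf11a and Phf11d on chromosome 14. Mcam lies near Pdzd3 and Thy1 on chromosome 9, with 2 and 4 genes between, and Ifit1 and Ifit3 on chromosome 19 have 3 between. Bgn and Pnck on chromosome X have 2 between. Bbc3 and Npas1 on chromosome 7 have 3, as do Cd34 and G0s2 on chromosome 1. In all, 41 of the 106 genes were in at least 1 of the lists and families examined, and 65 were in none. None came from the lists for antigen presentation, SRF and YAP targets, TGF-beta and BMP signalling, chemokines and complement, the Notch pathway or the cell cycle. Each of these lists had 17 to 38 measured genes, and 0.882% of all genes met the selection, so nothing is read from their absence.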

How the data were processed

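RNA of 6 samples was labelled with Cy3 and hybridised to 1-colour Agilent mouse arrays. The authors extracted spot intensity with Agilent Feature Extraction, version 10.1 per the submitters' processing notes and 10.5.1.1 per the file headers. The deposited processed intensity is linear and background-subtracted, without scaling from array to array. A series-wide table, also deposited, gives each probe as a ratio on a linear scale, whose centring and scaling are not stated. Its column medians were -0.20 to -0.02 on the log2 scale, it correlated with the processed intensity per array at r = 0.996 or above after probe centring, and it was used as an alternative.

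Outlier flags removed 106 of the 41174 probes that were not controls. Of the 41068 used, 25036 (61.0%) took a symbol by matching their accession to the RefSeq gene table. Log2 intensity was scaled by the array's 75th percentile. Limma 3.58.1 in R 4.3.3 fitted 1 mean per group over all 6 arrays to the 26474 probes that were above background throughout 1 group or more (3 residual and 2.12 prior degrees of freedom), with Benjamini-Hochberg adjustment over these probes. Counts over 13053 named genes use the brightest probe. The fit was tested on simulated data. An exact permutation test of 2 against 2 arrays cannot go below a two-sided p of 0.333.

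The selection, the gene lists and the motifs were chosen with earlier results of these data known, and the classes by function were formed after the values were seen. Genes were named by rank of their differences, by list, by nearness to a threshold and by disagreement between probes, and others were named after their values were seen. Promoter windows came from the RefSeq table of GRCm38.p6. The alternatives were other scalings, background corrections, filters, probe choices, variance models, a replicate block and leaving out each array. Of the selected genes, 1 is counted in the totals and not reported by name here.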

Additional observations from a re-analysis of the deposited data

How the results depend on the processing

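The number of selected genes (106) was 91 to 117 under median centring, quantile normalization, the authors' deposited ratios and both other choices of probe. It was 50 with normexp on the median signal, 211 when a gene had to be above background in only 1 group, and 63 with both thresholds at -1. All 50 genes selected with normexp were among the 106, and the 56 lost had a median processed intensity of 106.1 against 518.4. Leaving out 1 array gave 107 to 136 genes. Of the 106, 32 were selected under all 14 settings and 67 without any single array. The median Ro difference was -1.42 with normexp and otherwise within the replicate spread.

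The count higher in washout than in Ro (51) was 25 with both thresholds at -1 and 32 to 61 with 1 array left out. The count lower (2) was 1 under median centring, the authors' deposited ratios, normexp and no filter, 8 with the looser filter, and 0 to 4 with 1 array left out. Over all genes, leaving out 1 array gave 1645 to 3083 higher and 1261 to 2300 lower. Median centring gave 2306 higher and 3282 lower, and the authors' deposited ratios 2200 and 3316, against 2952 and 2657. The cause of these changes was not tested. Among the selected genes, the count higher was 36 with no filter in the fit, 35 with normexp and 72 with the looser filter. With the replicate number as a block, the counts were 44 higher and 1 lower. Whether the replicate numbers pair the samples is not given. Replicate differences correlated at -0.09, 0.04 and -0.09 between groups. That cannot decide the question, since paired samples with a small shared effect could also give low correlations. Of 918 values of 51 named genes under alternatives, none was called in the opposite direction, 48 lost their call and 7 gained one. In genes not called, the sign of washout minus Ro can change when an array is left out. G0s2 is such a gene, since its washout arrays lay on either side of its Ro arrays. Naming genes by a gene name column could not be run.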
